A study of Mus musculus with 4 samples.

Results

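The nuclear genes of the mitochondrial respiratory chain and of ATP synthase were followed in muscle dissected from the limb and the back of mouse embryos. Members were taken by name alone, as genes whose symbol in the array annotation starts with Ndufa, Ndufb, Ndufc, Ndufs, Ndufv, Uqcr, Sdha to Sdhd, Atp5, or Cox followed by 4 to 8. This gave 94 genes of 18193 named on the array, read by 185 probe sets, and each of the 94 is accounted for below. They are 34 complex I subunits, 4 complex II subunits, 8 complex III subunits, 18 complex IV subunits (Ndufa4 and Ndufa4l2 among them), 17 ATP synthase subunits and 13 factors that assemble or join the complexes and carry the same name stems. A further 10 probe sets list several symbols, of which at least 1 meets the rule, and were left out of the counts.

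The embryos were BALB/c mice at E13.5 (days after conception), and 4 groups were compared: wild-type (WT) limb muscle, MyoD-null (MyoD-/-) limb muscle, WT back muscle and Myf5-null (Myf5-/-) back muscle. By its title, the series addresses a role of muscle in the development of motor neurons. MyoD and Myf5 are E-box-binding transcription factors that start the skeletal muscle programme. Each group has 1 array, so no value has a replicate error and no p-value exists, and nothing in the labels used here says if an extract pooled embryos or how the null alleles were built.

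The respiratory chain passes electrons from NADH (at complex I) or succinate (at complex II) through complex III to complex IV, which hands them to oxygen. The proton gradient this builds drives ATP synthase, a rotary enzyme with a catalytic head, a ring of c subunits and a peripheral stalk. Most subunits are encoded in the nucleus and made in every tissue, while a few complex IV subunits have separate genes for heart and skeletal muscle. Cox6a2, Cox7a1 and Cox8b are those muscle isoforms, and Cox6a1, Cox7a2 and Cox8a are their common counterparts, which muscle uses before it matures.

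The promoters of 5 members are shown because the comparisons below turn on their genes: a muscle isoform (Cox8b), its common counterpart (Cox8a), the common partner of the other measured muscle isoform (Cox6a1), the complex III subunit Uqcr11 and the catalytic ATP synthase subunit Atp5b. Each is the 250 bases before the annotated start, 5′ to 3′, from RefSeq on GRCm38.p6. Capitals mark CANNTG (the E-box, the core that MyoD-family factors bind), CCGGAAG (a core of ETS-family sites, which the regulator GABP binds) and the palindromic NRF1 consensus (in the Cox6a1 window alone of these 5), read on both strands. No base of these 5 windows lies in more than 1 marked match. The windows are chr7:140900447-140900696 on the minus strand for Cox8b, chr19:7217617-7217866 on the minus strand for Cox8a and chr5:115348959-115349208 on the minus strand for Cox6a1. They are chr10:80406822-80407071 on the minus strand for Uqcr11 and chr10:128083057-128083306 on the plus strand for Atp5b.
Cox8b: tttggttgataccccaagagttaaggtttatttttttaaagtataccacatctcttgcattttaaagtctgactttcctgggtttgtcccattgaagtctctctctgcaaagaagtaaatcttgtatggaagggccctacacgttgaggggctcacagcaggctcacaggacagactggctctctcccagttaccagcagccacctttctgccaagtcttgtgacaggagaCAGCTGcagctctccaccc
Cox8a: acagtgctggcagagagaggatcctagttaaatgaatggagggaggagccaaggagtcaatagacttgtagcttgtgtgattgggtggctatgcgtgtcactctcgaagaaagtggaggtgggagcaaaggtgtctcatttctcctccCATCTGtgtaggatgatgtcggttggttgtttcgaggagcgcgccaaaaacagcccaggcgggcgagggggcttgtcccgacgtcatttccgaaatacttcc
Cox6a1: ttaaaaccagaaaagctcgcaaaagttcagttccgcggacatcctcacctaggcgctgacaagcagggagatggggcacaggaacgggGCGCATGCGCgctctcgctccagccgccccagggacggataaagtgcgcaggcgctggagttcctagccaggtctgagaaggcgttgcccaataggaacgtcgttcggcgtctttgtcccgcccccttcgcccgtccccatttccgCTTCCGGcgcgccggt
Uqcr11: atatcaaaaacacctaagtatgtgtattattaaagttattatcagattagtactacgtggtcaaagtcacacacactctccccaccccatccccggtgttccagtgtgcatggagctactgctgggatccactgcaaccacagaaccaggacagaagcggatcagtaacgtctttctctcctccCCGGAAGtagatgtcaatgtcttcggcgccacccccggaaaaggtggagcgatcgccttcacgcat
Atp5b: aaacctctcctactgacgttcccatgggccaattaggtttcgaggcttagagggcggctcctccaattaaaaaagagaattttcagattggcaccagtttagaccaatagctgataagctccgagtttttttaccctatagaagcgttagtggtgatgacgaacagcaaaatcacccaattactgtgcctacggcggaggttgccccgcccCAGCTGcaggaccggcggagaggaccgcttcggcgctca

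Such windows were matched for 78 of the 94 members, in 83 promoters. CCGGAAG was in 16 of the 83 (19.3%) and in 6.9% of all 32851 promoters of this length. The NRF1 consensus was in 4 (4.8%) against 0.8% of all, in Atp5g2, Atp5k, Cox6a1 and Ndufaf4. The E-box with a GC centre, CAGCTG, was in 6 (7.2%) against 13% of all, in Atp5b, Cox8b, Ndufa8, Ndufb10, Ndufs5 and Ndufv2, and any CANNTG was in 63.9% against 66.2%. These matches describe letters in a window, no test was made, and the promoters' base composition was not compared. Members with CCGGAAG had a median log2 ratio of -0.39 in the limb mutant against WT limb and 0.20 in the back pair, and members without it -0.27 and 0.14.

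Signals are intensities that were rescaled to one trimmed mean, with values under 100 set to 100, and a gene is read by its brightest probe set. Fold changes are ratios of single arrays. Of the 94 members, 88 to 90 reached 100 in each array, and 86 did so in all 4. Myod1 was lower in MyoD-null limb than in WT limb, at 688 against 1438, but Myf5 read 583 in the back array labelled Myf5-null against 508 in WT back, so that array is named by its label throughout. Where the probes lie relative to the deleted part is not known here, so this reading is no check of the allele. All 20 skeletal muscle markers reached 100 in every array, and their summed signal was 102791 (WT limb), 68109 (MyoD-null limb), 200027 (WT back) and 129149 (labelled Myf5-null back). In pieces of whole tissue, fewer muscle cells and less RNA per muscle cell cannot be told apart. The arrays also differed in the ratio of 3 prime to 5 prime signal of Gapdh, which was 12.2, 8.06, 6.45 and 9.46 in that order. That of Actb was 6.88, 3.86, 3.2 and 4.28, so 3 prime signal exceeded 5 prime signal in every array for both genes. The median signal of all probe sets was 153, 126, 134 and 166 (WT limb, MyoD-null limb, WT back, labelled Myf5-null back).

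The muscle isoforms were low or unread at this age, and their common counterparts were read in every array. Cox6a2, the muscle form of subunit 6a, had a signal of 693 (WT limb), 361 (MyoD-null limb), 820 (WT back) and 698 (labelled Myf5-null back). It was highest in WT back and lowest in MyoD-null limb, and its log2 ratio was -0.94 for MyoD-null over WT limb (the limb pair). It was -0.23 for the array labelled Myf5-null over WT back (the back pair) and -0.24 for WT limb over WT back. Its second probe set was under 100 in both limb arrays but at 256 in WT back, with a ratio of -0.03 in the back pair. Cox6a1, the common form, was at 21343, 16397, 16844 and 23037 in the same order.

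Cox6a1 thus had log2 ratios of -0.38, 0.45 and 0.34 in the 3 comparisons, and a second probe set gave -0.36, 0.26 and 0.27. The ratio of Cox6a2 was below that of Cox6a1 by 0.56 in the limb pair, where the difference, muscle minus common, was -0.56. It was -0.68 in the back pair and -0.58 for WT limb over WT back. These differences show unequal change of the 2 genes on the log2 scale and say nothing of their relative levels. The muscle markers had medians of -0.57, -0.60 and -0.98 in the 3 comparisons, and the part of muscle content in the Cox6a2 values was not tested.

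Cox8b, the muscle form of subunit 8, was read in WT limb alone, at 206, and was under 100 in the other 3 arrays. It was at least 2.06-fold higher in WT limb than in MyoD-null limb and, separately, than in WT back. This order is not that of the muscle markers, which were highest in WT back. Cox8a was read at 1343, 1121, 1284 and 1375, with log2 ratios of -0.26, 0.10 and 0.07, and its second bright probe set gave -0.14, -0.27 and -0.15. Cox7a1, the muscle form of subunit 7a, reached 100 in WT back alone, at 113, while its common counterpart Cox7a2 was at 16108, 12823, 13057 and 15864.

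**Figure D1:**
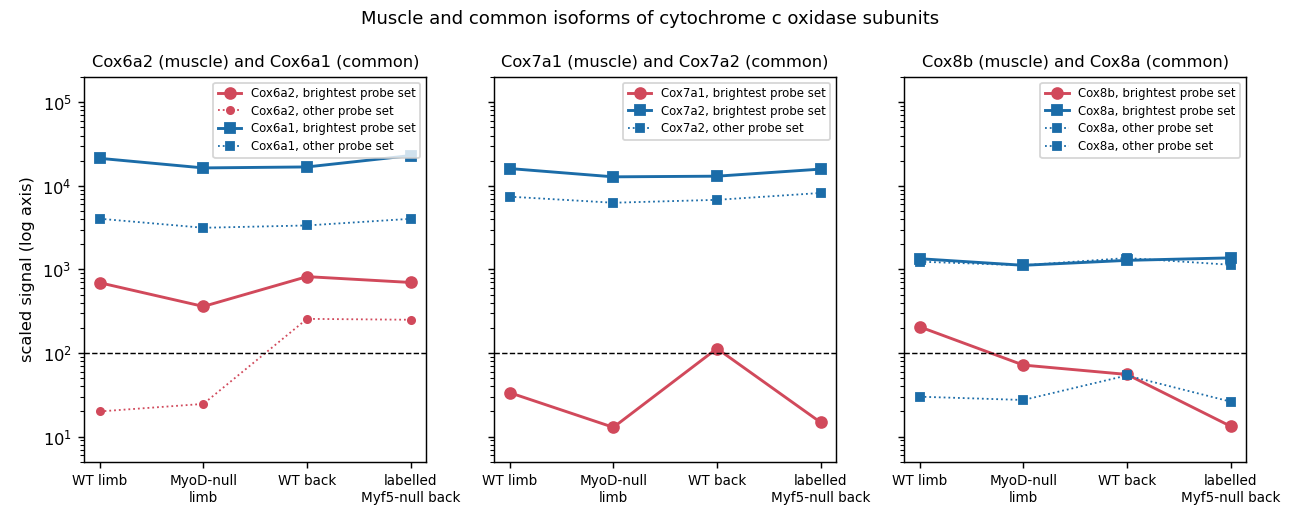
Scaled signal on a log axis in the 4 arrays for each muscle isoform (red circles) and its common counterpart (blue squares), with solid lines for the brightest probe set, dotted lines for the others and a dashed line at the floor of 100. Cox6a2 is lowest in MyoD-null limb at 361, Cox8b is above the floor in WT limb alone, and Cox7a1 in WT back alone.

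Of the other complex IV genes with restricted expression, Cox8c was read in every array and the rest were near or under the floor. Cox6b2, an isoform best known from testis, was at 200.1 (WT limb), under 100 (MyoD-null limb), 122 (WT back) and 286 (labelled Myf5-null back). Cox4i2, the lung and oxygen-responsive form of subunit 4, was at 133, 156 and 191 in the first 3 arrays and under 100 in the last. Cox8c was at 467, 431, 449 and 706, with a second probe set above 100 only in MyoD-null limb, at 255. Cox7b2 and Ndufa4l2 were under 100 in every array.

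In MyoD-null limb against WT limb, most subunits were slightly lower. All but Cox7a1, Cox7b2 and Ndufa4l2 reached 100 in one array or both, and of these 91, 75 (82.4%) had a log2 ratio below 0, against 53.9% of the 14496 genes tested, and their median was -0.28 against -0.045. The middle 50% of members lay between -0.46 and -0.12, and that of all genes between -0.38 and 0.26. At least 1.5-fold lower, with the brighter array at 200 or more, were 14 members (15.4%) against 11.2% of all genes, and 3 (3.3%) were at least 1.5-fold higher against 6.97%. The 14 were Cox8b, Cox6b2, Ndufb1, Cox6a2, Cox6c, Atp5k, Uqcr11, Ndufb2, Atp5md, Cox6b1, Uqcrc2, Ndufv2, Ndufb5 and Atp5e, and the 3 were Sdhd, Sdhc and Atp5b. The 14 became 9 under quantile normalization (9.9% against 9.3% of all genes), 8 after loess (8.8% against 8.9%) and 7 with probe sets named plain _at alone (10.1% against 11.1%). The excess over all genes in this count was thus not kept, and the shift of the median was, at -0.237 against -0.006, -0.221 against -0.015 and -0.165 against -0.014. At least 2-fold lower were 2 members (2.2%) against 5.19%, Cox8b and Cox6b2, both under 100 in the mutant, and 0 were 2-fold higher against 2.3%. The members were thus set apart from all genes by a common small shift more than by large differences. Probe sets of one gene spread around their mean log2 ratio with a median SD of 0.25 for members and 0.345 for all genes, which covers probes and not animals.

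Complex I, the entry point for NADH, had 30 of 34 members below 0 and a median of -0.32. Its core subunits had a median of -0.33 (5 of 6 below 0) and its accessory subunits -0.32 (25 of 28). The lowest were the accessory subunits Ndufb1, at 116 against 223 (-0.95), and Ndufb2, at 1746 against 3234 (-0.89). Ndufv2, a core subunit with an iron-sulphur cluster, was at 6510 against 10052 (-0.63), but another probe set of it gave 0.09. The highest were Ndufs1, the largest core subunit, at 2279 against 1927 (0.24), and Ndufa8, at 1779 against 1521 (0.23).

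Complex III, which passes electrons to cytochrome c, had a median of -0.32 with 6 of 8 below 0. Uqcr11, a small subunit, was at 1957 against 3629 (-0.89) and Uqcrc2, a core protein, at 9727 against 15256 (-0.65), while a second probe set of Uqcrc2 gave 0.34. Uqcrfs1, the Rieske iron-sulphur protein, was at 5618 against 3834 (0.55). The 5 measured tissue isoforms of complex IV had a median of -0.94, which is the value of Cox6a2, with 4 below 0. Cox8b and Cox6b2 were under the floor in MyoD-null limb, so once measured their ratios could only be below 0. Cox8c and Cox4i2, read in both arrays, were at -0.12 and 0.24, so the median shows no common drop of these isoforms. The common subunits of complex IV had a median of -0.31, with 9 of 10 below 0. The 1 above 0 was Cox7c, near the floor at 123 in MyoD-null limb and under 100 in WT limb. Cox6c was at 8505 against 16326 (-0.94) and Cox6b1 at 23757 against 39281 (-0.73), with -0.20 and -0.37 in their second probe sets. Cox4i1, the subunit that binds regulatory nucleotides, was at 14360 against 15577 (-0.12).

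ATP synthase had 15 of 17 members below 0 and a median of -0.33. The supernumerary subunits that sit in the membrane part were lowest, with all 5 below 0 and a median of -0.46. Among them Atp5k, subunit e, was at 4420 against 8212 (-0.89), with -0.87 and 0.04 in its other probe sets, and Atp5md was at 2525 against 4419 (-0.81). The c-ring genes had a median of -0.25 and the peripheral stalk genes -0.29, with 3 of 3 and 4 of 4 below 0. In the catalytic head, Atp5b, the beta subunit that makes ATP, went the other way, at 17834 against 11456 (0.64), while Atp5e, the small epsilon subunit, was at 2464 against 3722 (-0.60).

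Complex II, the succinate dehydrogenase shared with the citric acid cycle, was the one complex with a median above 0, at 0.26 over 4 genes. Its membrane anchors Sdhd and Sdhc were higher in MyoD-null limb, at 2432 against 1465 (0.73) and 2936 against 1825 (0.69). Dimmer probe sets gave 0.13 for Sdhd and -0.27 for Sdhc, and with probe sets named plain _at alone the complex II median was -0.16. The catalytic subunits Sdha and Sdhb were at 5953 against 6679 (-0.17) and 5997 against 6716 (-0.16). The 13 assembly and joining factors had a median of -0.15 with 9 below 0, from Sdhaf3 at 230 against 329 (-0.52) to Ndufaf2 at 1036 against 824 (0.33).

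**Figure D2:**
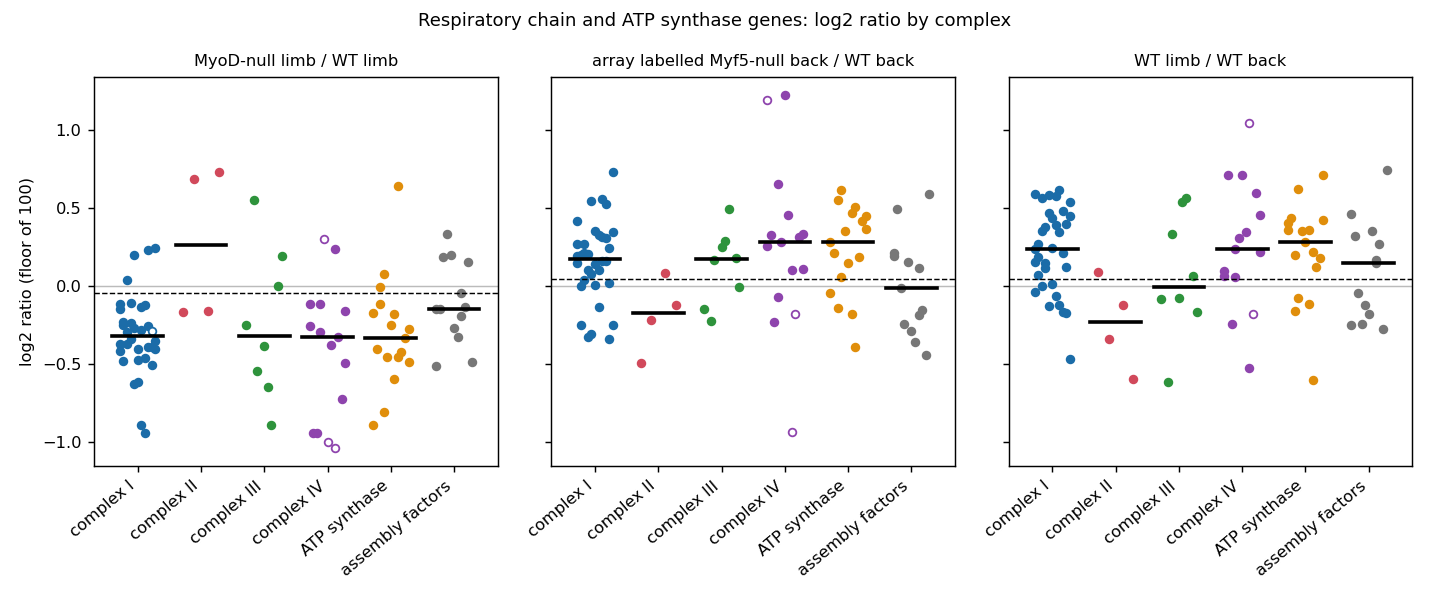
Log2 ratio of each gene in the 3 comparisons, by complex; filled points were at 100 or more in both arrays, open points in 1, black bars are medians and the dashed line is the median of all genes. In the limb pair (left) most points lie below 0 except in complex II; in the back pair (middle) and for WT limb over WT back (right) most lie above 0.

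In the back array labelled Myf5-null against WT back, the members lay on the other side of 0. Cox7b2, Cox8b and Ndufa4l2 were under 100 in both arrays, and of the other 91 members 63 (69.2%) were above 0, against 53.8% of 14684 genes, and the median was 0.165 against 0.045. With probe sets named plain _at alone it was 0.061 against 0.037 for all genes, so the members then differed from all genes by 0.024. At least 1.5-fold higher were 6 (6.59%), against 11.1% of all genes, and 0 were lower against 6.84%, so the share of members with such differences was below that of all genes. With probe sets named plain _at alone, 8 (11.4%) were higher, against 11.7% of all genes, and 1 (1.4%) was lower against 7.5%. The gap in the higher share was thus not kept in that setting. The 6 were Cox6b2, Cox7c, Ndufa13, Cox8c, Atp5md and Ndufaf3. The 2 members at least 2-fold higher (2.2% against 5.5%) were dim: Cox6b2, at 286 against 122, and Cox7c, whose brightest probe set was at 229 against under 100, at least 2.29-fold. The other probe set of Cox7c was under 100 in every array. The next dimmest common complex IV subunit, Cox8a, was at 1121 or more in each array, so Cox7c was read unlike the rest. No member was 2-fold lower, against 2.48%. Of all genes' 1.5-fold calls, 61.8% were higher here, and 51.1% after quantile normalization and 50.6% after loess, while the members' counts were 6 higher under both, with 1 lower after quantile normalization and 0 after loess.

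By complex, the medians in the back pair were 0.17 for complex I (27 of 34 above 0), 0.17 for complex III, 0.28 for complex IV and 0.28 for ATP synthase. With probe sets named plain _at alone, that of complex III was -0.06. Complex II, above 0 in the limb pair, was at -0.17 here, and the assembly factors were at -0.015. Ndufa13, an accessory subunit also known as GRIM-19, was at 18067 against 10912 (0.73) and Ndufb1 at 258 against 175 (0.56). Atp5md was at 4388 against 2871 (0.61), Atp5g1, a c-ring gene, at 1653 against 1130 (0.55), and Uqcr11 at 3446 against 2456 (0.49).

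Below WT back were Sdha, the flavoprotein of complex II, at 4455 against 6277 (-0.49), although its second bright probe set gave -0.06, and Atp5b, at 13283 against 17446 (-0.39). Uqcrfs1 was at 5029 against 5884 (-0.23), Ndufc2, an accessory subunit, at 9148 against 11493 (-0.33) and Ndufa9 at 5377 against 6652 (-0.31). Further bright probe sets of Ndufc2 were mixed in sign, at 0.25 and -0.23. Of the assembly factors, Ndufaf3 was at 428 against 285 (0.59), Ndufaf8 at 1466 against 1042 (0.49), and Ndufaf6 at 465 against 633 (-0.44). Cartilage markers were also much lower in that array, with a median of -1.37 over 13 genes, a summed signal of 6987 against 24650, and Col9a2, Col11a2 and Matn3 under 100. The muscle markers had a median of -0.60. The part of either in the members' ratios was not tested.

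In WT limb against WT back, which share an array each with the mutant comparisons, 63 of 91 members (69.2%, without Cox7b2, Cox7c and Ndufa4l2) were above 0 against 53.2% of 14605 genes, with a median of 0.21 against 0.042. At least 1.5-fold higher were 9 members (9.89%, against 12.1%) and lower were 3 (3.3%, against 9.49%), and the 1 member 2-fold higher (1.1% against 5.3%) was Cox8b, with 0 lower against 3.5%. The 9 became 5 under quantile normalization, and with probe sets named plain _at alone the median was 0.09 against 0.015. The common complex IV subunits were all above 0 where measured, 9 of 9, with a median of 0.30, from Cox8a at 0.07 to Cox6c, at 16326 against 9959 (0.71), although 2 of these, Cox8a and Cox5a, had a further bright probe set below 0, at -0.15 and -0.26. Atp5mpl, the small proteolipid of ATP synthase, was at 3110.0 against 1903 (0.71), Atp5md at 0.62, Ndufc1 at 13377 against 8742 (0.61), Ndufa1 at 27370 against 18196 (0.59) and the assembly factor Ndufaf3 at 478 against 285 (0.74). The 3 lower ones were Uqcrfs1 at 3834 against 5884 (-0.62), Atp5b at 11456 against 17446 (-0.61) and Sdhd at 1465 against 2212 (-0.59). The skeletal muscle markers went the other way as a list, with 19 of 20 below 0 and a median of -0.98, so that the members and the muscle markers did not move together in this comparison.

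The members were also read array by array. Of the 86 at 100 or more in all 4 arrays, WT limb was the brightest for 41 (47.7%, against 25.2% of 10911 genes) and the back array labelled Myf5-null for 30 (34.9%, against 26.5%). MyoD-null limb was the brightest for 7 (8.1%, against 25.5%) and WT back for 8 (9.3%, against 22.7%). The dimmest array was MyoD-null limb for 44 (51.2%, against 25.6%) and WT back for 19 (22.1%, against 22.5%). It was WT limb for 12 (14%, against 26.4%) and the back array labelled Myf5-null for 11 (12.8%, against 25.5%). Among the muscle markers, in contrast, WT back was the brightest for 17 of 20. The cytosolic ribosomal proteins, a list that shares no gene with the members, were like them in the brightest arrays. Of 47, WT limb was the brightest for 22 and the back array labelled Myf5-null for 20. Their dimmest array was more often WT back, for 22 (46.8%, against 22.1% of members), and MyoD-null limb for 19. Of the 76 mitochondrial ribosomal proteins, WT limb was the brightest for 24 and the back array labelled Myf5-null for 29, and MyoD-null limb was the dimmest for 37. The median signal of all probe sets and the Gapdh and Actb 3 prime to 5 prime ratios were also higher in WT limb and in the back array labelled Myf5-null than in the other 2 arrays. The part of RNA quality or labelling in the members' order was not tested.

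**Figure D3:**
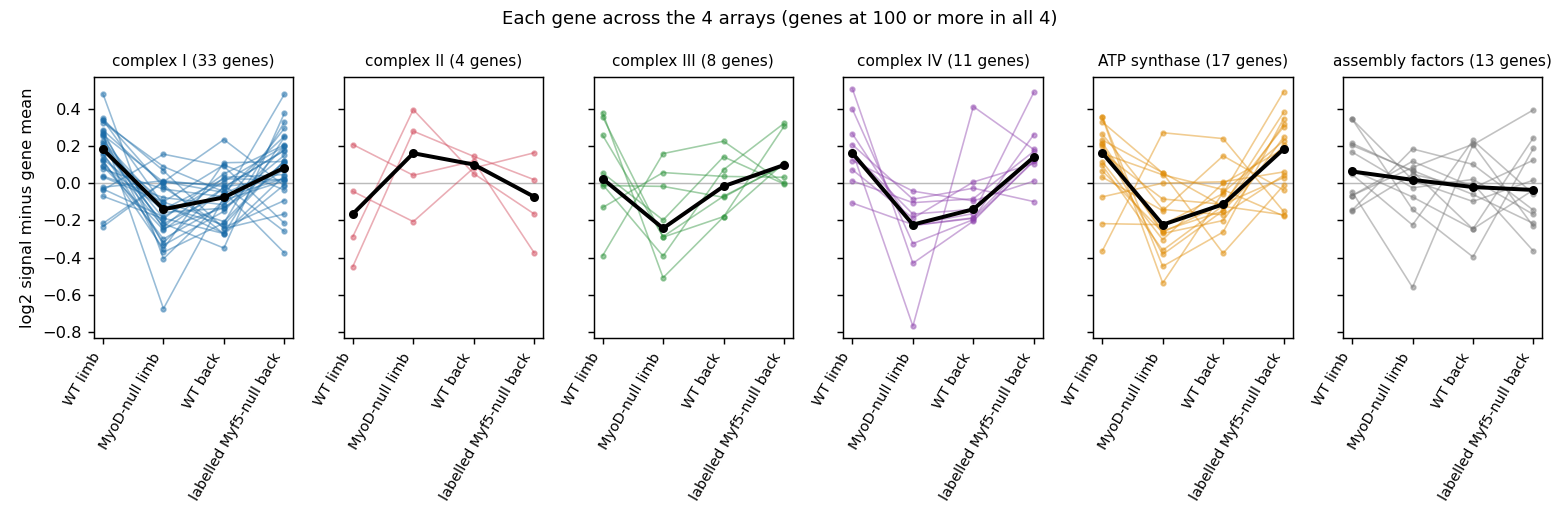
Each line is 1 gene at 100 or more in all 4 arrays, as log2 signal minus that gene's mean over the arrays, with the median in black. Below their own mean in both MyoD-null limb and WT back are 20 of 33 genes of complex I, 4 of 8 of complex III, 9 of 11 of complex IV and 10 of 17 of ATP synthase, but 0 of 4 of complex II and 2 of 13 assembly factors. The same share over all genes was not counted, so these counts describe the drawn genes and have no background beside them.

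The limb pair and the back pair share no array, so their ratios could be set side by side. Across 90 members measured in both, the log2 ratios had a Pearson correlation of -0.46 and a Spearman correlation of -0.51, and 69 (76.7%) had opposite signs. Over all 13371 genes the values were -0.14 and -0.17, with 57.9% of opposite sign. For the 47 cytosolic ribosomal proteins they were -0.31 and -0.40, with 76.6% of opposite sign. For the 16 citric acid cycle and pyruvate dehydrogenase genes they were -0.61 and -0.43, with 62.5%. Opposite ratios in the pairs were thus not a trait of the members alone. All these values are correlations across genes of single arrays, which share each array's labelling and scaling, and genes are not replicates. With a floor of 50, which lets dim isoforms spread, the members' Pearson value was -0.20. Over the 86 members at 100 or more in all 4 arrays it was -0.51. Atp5b, Sdhc, Sdhd and Uqcrfs1 were at the end of higher limb and lower back ratios, and Uqcr11, Cox6c, Ndufb1 and Atp5md at the other. Cox6a2 was below 0 in both pairs.

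**Figure D4:**
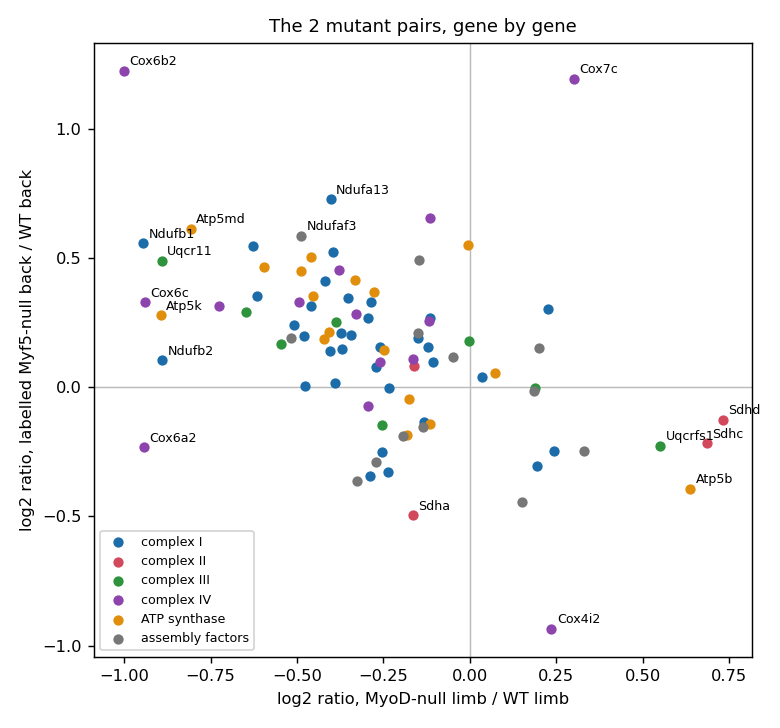
Log2 ratio of each gene in the limb pair (x axis) and in the back pair (y axis), coloured by complex, with the floor of 100 applied. Most points lie at the upper left, with Atp5b, Sdhc, Sdhd and Uqcrfs1 at the lower right and Cox6a2 at the lower left.

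Probe sets of the same gene did not always agree. In the limb pair, 16 of 46 members with several probe sets at 100 or more had both signs (34.8%, against 59.6% of all such genes), in the back pair 18 of 46 (39.1% against 56.2%) and for WT limb over WT back 24 of 45 (53.3% against 56.4%). Atp5a1, the alpha subunit of the head, was an example: its brightest probe set gave -0.18 in the limb pair and 2 others gave -0.53 and 0.49. Ndufs4, an accessory complex I subunit, gave 0.03 in its brightest probe set and 0.95, -0.64 and -0.04 in the others. In the back pair the widest opposite pairs were in Atp5k (0.28, 0.67 and -0.74), Ndufa7 (from -0.11 to 1.44), Ndufs8 and Ndufa3.

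Part of this ran along the class of probe set. Names ending in _a_at, _s_at or _x_at mark probes that match several transcripts or genes, and names ending in plain _at mark probes designed for 1. In the limb pair the members' probe sets of the first class had a median of -0.32 (83 probe sets) and those of the second -0.14 (74). In the back pair these medians were 0.20 and 0.06, and for WT limb over WT back 0.28 and 0.09. Over all named probe sets the same medians were -0.08 and 0.02, 0.02 and 0.01, and 0.05 and -0.01. Within genes read by both classes, the plain class gave the higher ratio in 27 of 35 members in the limb pair (77.1%, against 62.1% of all such genes). It did so in 10 of 34 in the back pair (29.4% against 48.0%) and in 6 of 33 for WT limb over WT back (18.2% against 39.4%). With plain probe sets alone the member medians were -0.165, 0.061 and 0.09, against -0.014, 0.037 and 0.015 for all genes, so that in the back pair the members were hardly apart from all genes. The cause of this difference between classes was not tested.

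**Figure D5:**
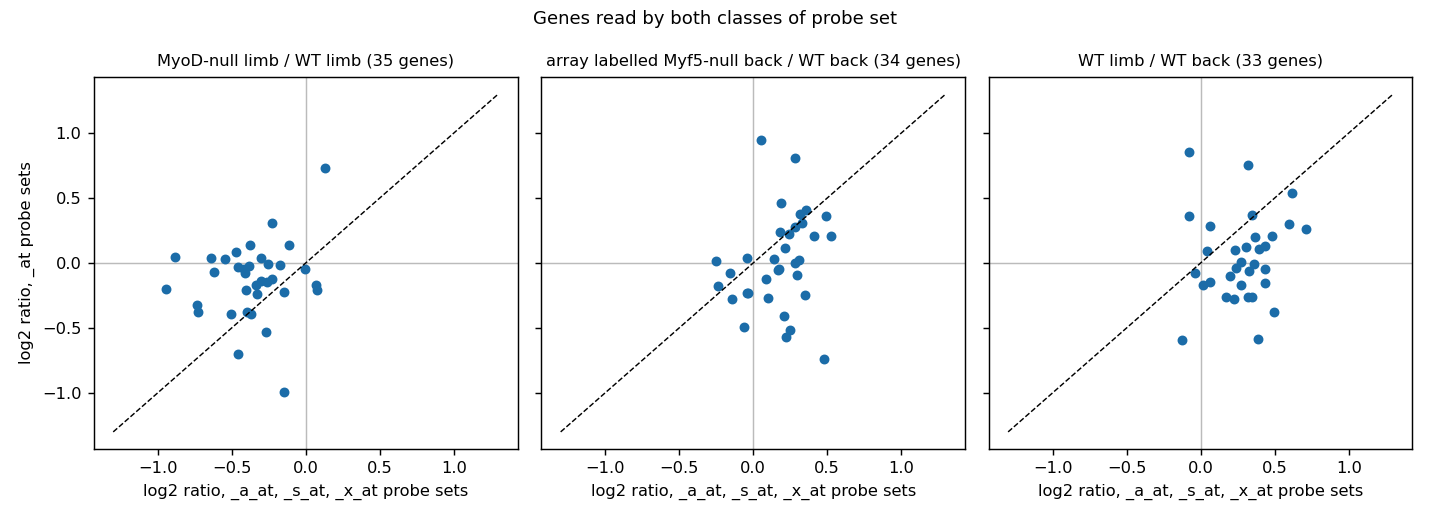
For genes read by both classes of probe set, the median log2 ratio of probe sets ending in plain _at (y axis) against that of probe sets ending in _a_at, _s_at or _x_at (x axis); the dashed line marks equal ratios. Points lie mostly above the line in the limb pair (27 of 35) and above it for 6 of 33 genes for WT limb over WT back. Over all genes read by both classes, which are not drawn, the shares above it were 62.1% and 39.4%, against 77.1% and 18.2% of members.

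Other genes of energy metabolism were read from lists. The 16 citric acid cycle and pyruvate dehydrogenase genes, which feed the chain, had medians of 0.12, -0.13 and -0.22 in the 3 comparisons. At least 1.5-fold differences were 2 higher and 0 lower in the limb pair and 0 higher and 2 lower in the back pair. Over all genes the shares were 6.97% higher and 11.2% lower in the limb pair and 11.1% higher and 6.84% lower in the back pair, from which counts of 2 and 0 in 16 cannot be told apart. Dld, the dehydrogenase subunit shared by several complexes, was at 906 (WT limb), 1462 (MyoD-null limb), 1660 (WT back) and 1053 (labelled Myf5-null back). Pdhx, which anchors it in pyruvate dehydrogenase, was at 141, 273, 264 and 171. Both were thus brightest in MyoD-null limb and WT back. Mdh2, malate dehydrogenase, was instead brightest in WT limb, at 20616, 15413, 16671 and 15851, and Cs, citrate synthase, was at 13974, 11487, 12474 and 13722. Of the 16 genes, MyoD-null limb was the dimmest for 7 and the brightest for 4.

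Cytochrome c (Cycs), the carrier between complexes III and IV, had log2 ratios of -0.42, -0.15 and 0.09, and Cyc1, the complex III subunit that hands electrons to it, of -0.06, 0.07 and -0.05. The adenine nucleotide carriers Slc25a4 and Slc25a5, which export ATP, stayed within -0.29 and 0.05 in the 3 comparisons. Complex IV assembly genes had medians of -0.13, 0.13 and 0.16 over 15 genes, with the copper chaperone Cox17 lowest in the limb pair at 2291 against 3667 (-0.68) and Lrpprc, which stabilises mitochondrial messenger RNA, highest at 839 against 544 (0.62). Assembly genes of complex III and ATP synthase had medians of -0.16, 0.12 and 0.27 over 9, with Uqcc2 at -0.62, 0.58 and 0.26.

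Regulators of mitochondrial biogenesis had medians of 0.07, -0.06 and 0.07. Ppargc1a, the coactivator PGC-1alpha, was at 253, 162, 222 and 178, and Tfam, which packages and transcribes mitochondrial DNA, at 1301, 1795, 1523 and 1280. Gabpa, a subunit of the factor that binds CCGGAAG sites, was at 1477, 1861, 1905 and 1187, highest in WT back. Of the mitochondrially encoded subunits on the list, ND5 of complex I was read, at 11480 (WT limb), 9678 (MyoD-null limb), 13193 (WT back) and 14708 (labelled Myf5-null back). The 76 mitochondrial ribosomal proteins had medians of -0.15, 0.14 and 0.03, and the 47 measured cytosolic ones -0.32, 0.30 and 0.29, beside -0.28, 0.165 and 0.21 for the respiratory genes.

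The 14 glycolysis genes had medians of -0.15, 0.04 and 0.03. Pgam2, the muscle form of phosphoglycerate mutase, was at 699 (WT limb), 368 (MyoD-null limb), 992 (WT back) and 490 (labelled Myf5-null back). Like Cox6a2, it was highest in WT back and lower in each mutant array than in its own WT array. The red blood cell markers had a summed signal of 122929 (WT limb), 88659 (MyoD-null limb), 87123 (WT back) and 135776 (labelled Myf5-null back). Hbb-y alone made up most of each sum, at 115330, 81483, 79867 and 128132 in the same order. The markers had a median of -0.37 over 6 genes in the limb pair, with 2 above 0 and 4 below. In the back pair it was 0.165 over 5 genes, with 3 above 0 and 2 below. For WT limb over WT back it was 0.19 over 6 genes, with 3 above 0 and 3 below, so the list was mixed in sign. Of the 7 listed genes, Epb42 was under 100 in every array and Hba-a1 in all but WT limb. The signs of these medians were those of the members' medians, and the part of red blood cells in the members' ratios was not tested.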

How the data were processed

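The labels' protocols describe Trizol extraction of total RNA and labelling of 6 µg as biotinylated cRNA. The values are the intensities that the authors deposited, linear and 1 for each probe set of an array, from MAS5 per the submitters' processing notes; its version and target value were not stated. Arrays were brought to a 2% trimmed mean of 500 (controls left out), a floor of 100 was applied, and log2 ratios were taken between arrays with Python 3.11.15 (numpy 2.4.6, pandas 2.3.3, statsmodels 0.14.6). The number of arrays limits the precision.

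Of 45101 probe sets, 34945 have 1 symbol and are no controls, 932 have several and 9211 are not listed in the platform annotation and are unnamed here. Each gene took its brightest probe set (mean log2 signal over arrays) and was tested where it reached 100 in at least 1 array of a comparison. It was counted at a ratio of 1.5 or of 2, with the brighter array at 200 or more. With 1 array per group no test over samples exists, and lists are described by counts and medians beside those of all genes. Symbols of all 94 members matched RefSeq (GRCm38.p6) by Entrez number.

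The members and lists were chosen with earlier results of these data known. Named genes are the tissue isoforms and their counterparts, the 2 highest and 2 lowest of each complex per comparison, those at least 2-fold different, those with widely opposed probe sets, and some genes of each further list; the text gives part of them, and a few were added for their role after their values were seen. Some lists share genes. The steps were tested on simulated data. As alternatives, ratios were recomputed without rescaling, with quantile normalization, with loess within each pair (span 0.3), with a floor of 50 or of 200, with a pseudocount of 100 in place of the floor, with gene values as medians over probe sets, and with plain _at probe sets alone.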

Additional observations from a re-analysis of the deposited data

Results flagged for a closer look

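Log2 ratios of the 2 mutant pairs lay on opposite sides of 0 for several results. With 1 array per group these differences were not tested. The differences below are the limb-pair minus the back-pair log2 ratio. For the median of all members it was -0.441, for complex I -0.492, for complex III -0.491, for complex IV -0.61 and for ATP synthase -0.61. Complex II had the opposite sign, at 0.433. All genes also had medians of opposite sign, -0.045 in the limb pair and 0.045 in the back pair. With probe sets named plain _at alone, the members' medians were -0.165 and 0.061, against -0.014 and 0.037 for all genes. Of the single genes flagged, those on the same side as complex I were Ndufb1 (-1.502), Atp5md (-1.42), Uqcr11 (-1.38), Cox6c (-1.269), Ndufv2 (-1.171), Ndufa13 (-1.13), Ndufaf3 (-1.074), Atp5e (-1.061) and Ndufb5 (-0.968). Atp5b was the flagged gene on the other side, at 1.031. The flagged genes are not all that differed. Cox6b2 and Atp5k were also below 0 in the limb pair and above it in the back pair, and Sdhc, Sdhd and Uqcrfs1 the reverse. Probe sets named plain _at gave 0.09 and -0.09 for Ndufv2 in the limb and back pairs, and -0.07 and -0.25 for Ndufb5. All of these rest on the same 2 pairs of arrays.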

How the results depend on the processing

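Under the alternatives, 64 of 80 recomputed member medians, counts and correlations held within their tolerance (a count within 1.5 times, a median within 0.036, 0.034 and 0.037 for the 3 comparisons, from the spread between probe sets, and the correlation within 0.1). The members' median in the limb pair was -0.237 under quantile normalization, -0.221 after loess and -0.165 without shared-probe probe sets. In the back pair it was 0.061 without them. For WT limb over WT back it was 0.163 under quantile normalization, 0.137 after loess, 0.166 as a median over probe sets and 0.09 without shared-probe probe sets. No median over all members changed sign under the 8 alternatives. The 14 members at least 1.5-fold lower in the limb pair became 9 under quantile normalization, 8 after loess, 9 as a median over probe sets and 7 without shared-probe probe sets, which is 9.9%, 8.8%, 9.9% and 10.1% of members against 9.3%, 8.9%, 10.3% and 11.1% of all genes. Lower members in the back pair went from 0 to 1 under quantile normalization and without shared-probe probe sets, and the 9 higher in WT limb over WT back to 5 under quantile normalization. The correlation between the pairs, whose alternatives were added after seeing the data, was -0.197 with a floor of 50. Without shared-probe probe sets the medians of complex II in the limb pair (-0.163) and of complex III in the back pair (-0.058) and the limb ratio of Atp5k (0.044) turned. Genes with shared-probe probe sets alone then drop out (Sdhc in complex II, Uqcrc1 and Uqcrc2 in complex III), and Atp5k takes another probe set. Of the other values, 638 of 674 for named genes and 122 of 144 for complex medians held. No paired analysis was possible because each group has 1 array. Signals near the floor of 100, as for Cox7a1, Cox8b and Cox4i2, have no order below it. Ndufb1, read by 1 probe set at 116 to 258, was also close to that floor.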

Other observations

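The 10 probe sets that list several symbols were left out of every count. Those brighter than 1000 in all 4 arrays included probe sets of Ndufs5 with its pseudogene, at 1615 (WT limb), 1271 (MyoD-null limb), 1413 (WT back) and 1576 (labelled Myf5-null back), and of Ndufa11 with Ndufa11b, at 1877, 1312, 1635 and 1843. The probe set of Ndufs6 with Ndufs6b had log2 ratios of 0.15, 0.09 and 0.02 in the 3 comparisons. That of Ndufb4 with Ndufb4b and Ndufb4c had -0.23, 0.16 and 0.13, and a dimmer one -0.08, 0.01 and -0.11. In the counts, Ndufb4 was read by 1 other probe set near the floor, at 122, under 100, 138 and 109 in the same array order. It gave -0.34 in the back pair, opposite in sign to the bright one. The nuclear regulator Esrrb was at 527 (WT limb), 157 (MyoD-null limb), 294 (WT back) and 285 (labelled Myf5-null back), and the mitochondrial ribosomal protein Mrps11 at 376, 156, 163 and 249.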
